A study of Mus musculus with 6 samples.

Results

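The 34 endothelial surface and junction genes described here are transcripts that blood vessel endothelium makes in excess of other cells. They encode adhesion molecules, surface receptors and their ligands, proteins of membrane traffic and lipid uptake, and intracellular partners of cell contacts. They were chosen by name as endothelial-enriched genes, leaving out transcription factors and the receptors for VEGF and angiopoietin, and they are 34 of the 18822 genes with a value. RNA came from isolated glomeruli, the capillary tufts in which the kidney filters blood, of mice of the C57BL/6J strain, all with diabetic kidney disease. There were 2 groups of 3 libraries: PR3_KO mice, in which Prtn3, the gene of the neutrophil enzyme proteinase 3, was knocked out, and WT mice. Both groups carry the disease label, so no comparison with non-diabetic glomeruli could be made. The sources used here do not state how diabetes was induced, the age and sex of the animals or the cells in which Prtn3 was deleted. The labels do not say that each library came from a separate animal, and the p-values therefore cover the spread among these libraries alone, which may be technical.

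Glomerular endothelium is a thin, fenestrated cell layer that lines the capillary loops and shares a basement membrane with podocytes, the epithelial cells on the outer side. Its cells are held together by adherens junctions built on VE-cadherin, and their luminal face carries sialomucins and other glycoproteins that form a coat against the blood. Receptors for adrenomedullin, sphingosine-1-phosphate and BMP9 are known to keep such layers tight and quiescent.

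All values are FPKM, fragments per kilobase of transcript scaled to a fixed number of mapped fragments, as deposited. A fold change is the PR3_KO mean of log2(FPKM + 1) minus the WT mean, given with the SE of limma, and it understates the change of genes near or under 1 FPKM. The lowest values of short single-exon genes put the depth at about 14200000 to 14900000 fragments in PR3_KO and 13500000 to 14900000 in WT, a rough estimate. Prtn3 itself was at 0.14, 0 and 0.07 FPKM in PR3_KO libraries 1, 2 and 3, against 0.46, 0.21 and 0.22 FPKM in WT 1, 2 and 3, too low for a firm check of the labels. Tubular RNA was present in every library and differed between genotypes. The summed FPKM of 12 proximal tubule markers ran from 54826 to 71361 in PR3_KO and from 10133 to 27873 in WT. The single gene Kap made up most of these sums, and without it they ran from 11600 to 14280 in PR3_KO and from 4885 to 9364 in WT. The summed FPKM of 12 podocyte markers was 348 to 556 in PR3_KO and 626 to 999 in WT. Since FPKM is relative to all mapped fragments of a library, the part of this difference in the results below was not tested.

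Endothelial surface and junction genes were lower in PR3_KO throughout. Of the 34 genes, 32 had a mean of at least 1 FPKM and were tested, and all 32 fell while none rose (limma, Benjamini-Hochberg adjusted p from 0.0006 to 0.0337). Over all 12388 tested genes 41.1% were called lower and 11.7% higher, so a fall alone was common. The unscaled counts of the other lists below are to be read against these shares. The size of the fall was less common: 28 of the 32 fell by 1 or more on the log2 scale, against 9.36% of all tested genes. The median log2 fold change was -1.30 for the 32 genes and -0.26 for all tested genes, a difference of -1.05 before rounding. Median-of-ratios scaling moved the median of all genes to 0.03, with 2742 genes called lower (22.2%) and 3158 higher (25.6%), against 5091 lower and 1454 higher without it (916 higher without PR3_KO 1 and 936 without PR3_KO 3). After that scaling 28 of the 32 endothelial genes fell and none rose (median -0.98), the exceptions being Apln, Fabp4, Lpl and Plat. Scaled counts of the other lists below are to be read against the 22.2% lower and 25.6% higher. The PR3_KO mean was between 0.247 and 0.638 times the WT mean, with a median of 0.398. In bulk RNA, fewer endothelial cells, less RNA per endothelial cell and the difference in tubular RNA given above cannot be told apart.

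**Figure D1:**
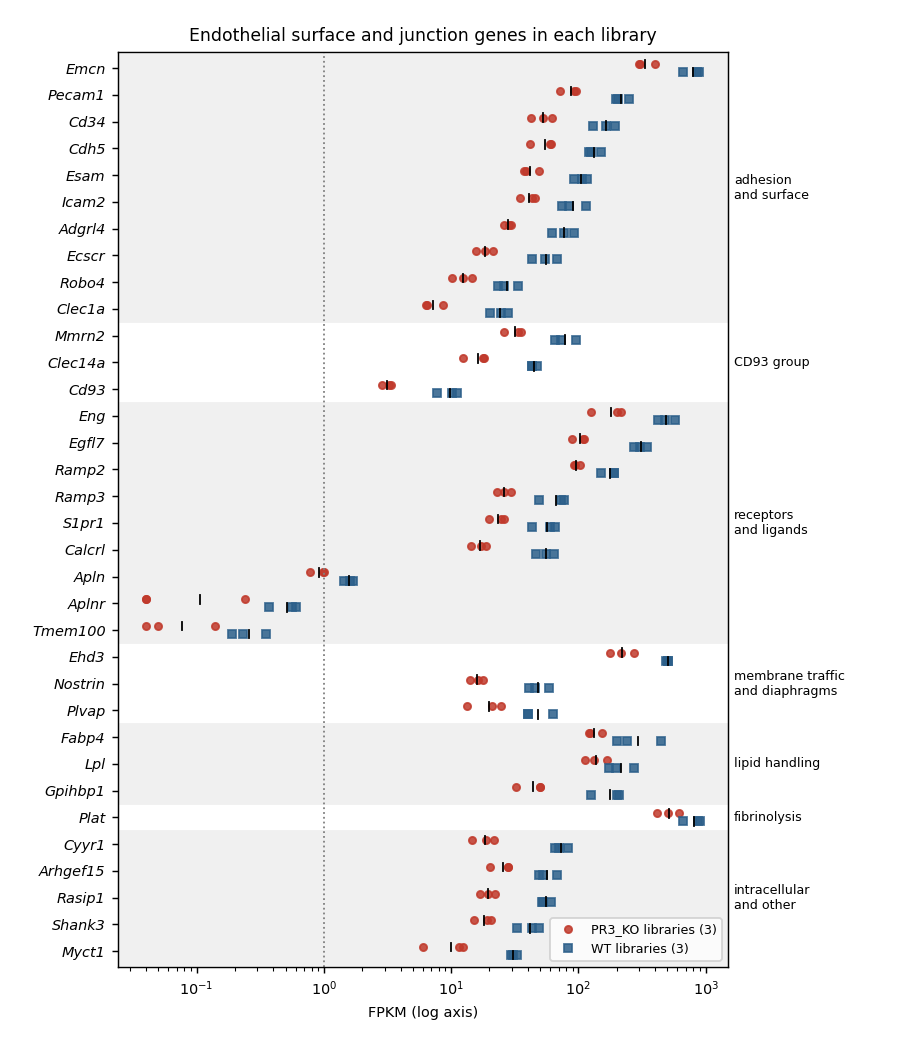
FPKM of the 34 genes in each library on a log axis, with PR3_KO libraries as red circles, WT libraries as blue squares and the mean of 3 as a black tick; the dotted line marks 1 FPKM. For each of the 34 genes all 3 PR3_KO libraries lie below all 3 WT libraries, and Aplnr and Tmem100 lie under 1 FPKM in every library.

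The libraries of the 2 genotypes did not overlap in any of the 34 genes, with PR3_KO below WT in each, while 49.1% of all tested genes were lower in PR3_KO without overlap. The same libraries were high or low for most of the genes. PR3_KO 1 was the lowest PR3_KO library for 26 of the 32 tested genes, and WT 2 was the highest WT library for 25 of them. The mean log2(FPKM + 1) of the 32 genes was 4.94, 5.33 and 5.20 in PR3_KO libraries 1, 2 and 3, against 6.28, 6.63 and 6.47 in WT 1, 2 and 3. Podocyte markers had the same lowest and highest libraries, with 3.86, 4.35 and 4.05 in PR3_KO, against 4.40, 5.10 and 4.60 in WT. Proximal tubule markers were lowest in WT 2 (9.43, 9.27 and 9.44 in PR3_KO, against 8.60, 7.80 and 8.29 in WT). Across the 32 genes, abundance and fold change were hardly related (Spearman's rank correlation 0.20, Pearson's r 0.05; a description over genes that share the same 6 libraries).

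Among the adhesion and surface glycoprotein genes, all 10 fell, by a median of 1.32 on the log2 scale (range -1.63 to -1.10). Cdh5, which encodes VE-cadherin, the adhesive core of endothelial adherens junctions, was at 41.66, 60.88 and 59.86 FPKM in PR3_KO libraries 1, 2 and 3, against 126.56, 150.43 and 121.09 FPKM in WT 1, 2 and 3 (log2 fold change -1.29, SE 0.17, limma adjusted p = 0.00113). Pecam1, an immunoglobulin-family adhesion molecule of endothelial contacts that platelets and leukocytes also carry, was at 71.05, 92.96 and 95.89 FPKM in PR3_KO, against 197.17, 249.11 and 203.73 FPKM in WT (-1.32, SE 0.16, limma adjusted p = 0.000932). Both junction genes thus fell by nearly the same factor, and the ratio of Pecam1 to Cdh5 was 1.71, 1.53 and 1.60 in PR3_KO, against 1.56, 1.66 and 1.68 in WT.

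The sialomucin gene Emcn (endomucin) was the most abundant of this group in both genotypes, at 301.06, 400.27 and 305.96 FPKM in PR3_KO, against 660.85, 879.30 and 861.50 FPKM in WT (-1.25, SE 0.18, limma adjusted p = 0.00137). Cd34, another sialomucin, also found on haematopoietic progenitors, fell more, to 42.59, 52.72 and 61.96 FPKM in PR3_KO, against 130.77, 193.84 and 166.00 FPKM in WT (-1.62, SE 0.19, limma adjusted p = 0.000853). Esam, an adhesion molecule of endothelial tight junctions, averaged 41.7 ± 6.40 FPKM in PR3_KO and 106 ± 12.9 FPKM in WT (SD, n = 3 each; -1.32, limma adjusted p = 0.000825). Like the rest of the 34 genes, these 3 kept a gap between the highest PR3_KO and the lowest WT library.

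Icam2, a ligand of leukocyte integrins, averaged 41.0 ± 5.48 FPKM in PR3_KO and 90.9 ± 21.4 FPKM in WT (-1.11, limma adjusted p = 0.00215). Robo4, the endothelial member of the Roundabout receptors, was the least changed of the group (12.3 ± 2.18 FPKM in PR3_KO and 27.6 ± 5.32 FPKM in WT; -1.10, limma adjusted p = 0.00172). Clec1a, a C-type lectin-like receptor, was the most changed, at 6.34, 8.66 and 6.42 FPKM in PR3_KO, against 20.33, 27.80 and 24.42 FPKM in WT (-1.63, SE 0.15, limma adjusted p = 0.000691). The remaining surface genes lay between these bounds. Ecscr, a regulator of endothelial movement and survival, averaged 18.4 ± 2.80 FPKM in PR3_KO and 55.2 ± 12.4 FPKM in WT, and Adgrl4, an adhesion G-protein-coupled receptor, 28.0 ± 1.64 FPKM in PR3_KO and 77.1 ± 15.0 FPKM in WT (-1.52 and -1.41, limma adjusted p = 0.000896 and 0.000776).

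The lectin-like receptors CD93 and CLEC14A share a binding partner, the matrix protein multimerin 2, and the genes of all 3 fell by 1.27 to 1.43 on the log2 scale. Clec14a was at 12.28, 17.91 and 18.26 FPKM in PR3_KO, against 42.90, 43.20 and 47.50 FPKM in WT (-1.43, SE 0.15, limma adjusted p = 0.000799). Cd93, which myeloid cells also express, was at 3.22, 2.88 and 3.35 FPKM in PR3_KO, against 7.77, 11.20 and 10.18 FPKM in WT (-1.36, SE 0.14, limma adjusted p = 0.000776). Mmrn2 averaged 31.5 ± 5.03 FPKM in PR3_KO and 77.7 ± 15.8 FPKM in WT (-1.27, limma adjusted p = 0.00123). In the list of other CD93-family members and matrix ligands 4 of 6 tested genes fell and none rose, where 41.1% of all tested genes fell. Among those that fell were Thbd (thrombomodulin, -0.93, limma adjusted p = 0.00245), Hspg2 (perlecan, -1.09, limma adjusted p = 0.0039) and Emilin1 (-1.30, limma adjusted p = 0.0052). Igfbp7, the most abundant of the list, and Cd248 were not past the threshold (-0.01 and -0.70, limma adjusted p = 0.981 and 0.0745).

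All 7 tested genes of receptors and ligands fell, over the widest span of any group with more than 3 genes (-1.67 to -0.42). Eng, endoglin, the co-receptor for BMP9 in endothelium, was at 125.81, 214.26 and 202.02 FPKM in PR3_KO, against 476.97, 568.77 and 423.64 FPKM in WT (-1.46, SE 0.22, limma adjusted p = 0.00173). Of 11 tested genes of the same BMP9 and ALK1 pathway 10 fell and none rose, with a median of -1.21, where 41.1% of all tested genes fell. After median-of-ratios scaling 8 of the 11 fell and none rose, with a median of -0.88. Acvrl1, which encodes the receptor kinase ALK1, averaged 20.1 ± 2.52 FPKM in PR3_KO and 50.6 ± 3.07 FPKM in WT, and the type II receptor gene Bmpr2 12.7 ± 1.71 FPKM in PR3_KO and 34.4 ± 4.04 FPKM in WT (-1.29 and -1.38, limma adjusted p = 0.000684 for both). The inhibitory Smad gene Smad7 fell by 1.55 (limma adjusted p = 0.000735), and Smad6, named after its values were seen, fell by 2.20 (limma adjusted p = 0.000825). Tmem100, a transmembrane protein induced by BMP9 and ALK1, was under the filter at 0.04, 0.05 and 0.14 FPKM in PR3_KO, against 0.35, 0.23 and 0.19 FPKM in WT (p = 0.1 in an exact two-sided permutation test, which cannot go lower with 3 against 3 libraries).

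Calcrl encodes the receptor that needs a RAMP protein as partner to bind adrenomedullin, a peptide that tightens endothelial layers. It was at 14.23, 18.80 and 17.06 FPKM in PR3_KO, against 46.16, 64.80 and 55.22 FPKM in WT (-1.67, SE 0.15, limma adjusted p = 0.000684). Ramp2 was at 94.06, 103.13 and 92.42 FPKM in PR3_KO, against 149.92, 190.62 and 189.11 FPKM in WT (-0.86, SE 0.13, limma adjusted p = 0.00186). Ramp3 averaged 26.2 ± 3.43 FPKM in PR3_KO and 66.3 ± 14.9 FPKM in WT (-1.29, SE 0.18, limma adjusted p = 0.00137). The fold change of the receptor was larger than that of either partner. Ramp2 stood at 6.61, 5.49 and 5.42 times the FPKM of Calcrl in PR3_KO, against 3.25, 2.94 and 3.42 times in WT, a comparison chosen after the values were seen and given without a test. Of the other genes of the adrenomedullin system, 0 of 3 tested passed the threshold (limma; also 0 after median-of-ratios scaling), with Adm, the ligand, at 8.66 ± 1.84 FPKM in PR3_KO and 10.2 ± 1.69 FPKM in WT (-0.22, limma adjusted p = 0.316) and the scavenging receptor gene Ackr3 at -0.09 (limma adjusted p = 0.595). The signs of Adm and Ackr3 turned with that scaling (0.08 and 0.22), and Ackr3 was at 0.01 without PR3_KO 2.

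S1pr1, the main endothelial receptor for sphingosine-1-phosphate, was at 24.41, 25.99 and 19.69 FPKM in PR3_KO, against 43.08, 65.72 and 59.72 FPKM in WT (-1.22, SE 0.17, limma adjusted p = 0.00142). Of 8 tested genes that make, export, break down or otherwise sense this lipid or relay its signal, 2 fell and none rose. After median-of-ratios scaling 2 of the 8 rose and none fell, where 25.6% of all tested genes rose and 22.2% fell. The 2 that fell without scaling were Gna13, a G-protein subunit (-0.27, limma adjusted p = 0.029), and the receptor gene S1pr2 (-0.66, limma adjusted p = 0.038). The 2 that rose with scaling, named after their values were seen, were Sphk2 and Gna12 (0.34 and 0.40, limma adjusted p = 0.0236 and 0.0477). Gna13 was past the threshold only with all 6 libraries (limma adjusted p 0.054 to 0.097 with any 1 left out) and turned to 0.04 after median-of-ratios scaling, and S1pr2 was not past it without PR3_KO 1, PR3_KO 3, WT 2 or WT 3 (limma adjusted p = 0.122, 0.0693, 0.0836 and 0.0883). Egfl7, a secreted factor of the endothelial matrix, was at 89.50, 109.41 and 110.00 FPKM in PR3_KO, against 275.41, 346.77 and 301.94 FPKM in WT (-1.57, SE 0.14, limma adjusted p = 0.000684).

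Apelin and its receptor were the lowest-expressed pair. Apln, the peptide ligand, was at 0.78, 1.0 and 0.98 FPKM in PR3_KO, against 1.68, 1.45 and 1.59 FPKM in WT (-0.42, SE 0.12, limma adjusted p = 0.0209). The pseudocount weighs on a gene at this level, and with a pseudocount of 0.1 the fold change was -0.72. The call of Apln was lost without PR3_KO 1, WT 1 or WT 3 (limma adjusted p = 0.0758, 0.0592 and 0.0503) and when scaled by median of ratios (-0.24, limma adjusted p = 0.111). Aplnr, the receptor, was at 0.04, 0.04 and 0.24 FPKM in PR3_KO, against 0.60, 0.37 and 0.56 FPKM in WT (p = 0.1 in the same exact permutation test). At the estimated depth these Aplnr values stand for about 2, 2 and 13 fragments in PR3_KO and about 30, 20 and 30 in WT.

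In the group of membrane traffic and diaphragms all 3 genes fell. Ehd3, a protein of endocytic recycling used as a marker of glomerular endothelium, was at 178.51, 271.32 and 215.27 FPKM in PR3_KO, against 502.88, 508.37 and 491.86 FPKM in WT (-1.19, SE 0.17, limma adjusted p = 0.00131). Plvap forms the diaphragms of fenestrae and caveolae, which mature glomerular capillaries mostly lack and peritubular capillaries have. It was at 13.29, 24.73 and 20.92 FPKM in PR3_KO, against 39.87, 63.61 and 39.84 FPKM in WT (-1.25, SE 0.26, limma adjusted p = 0.00579). The glomerular and the peritubular marker had similar fold changes, and their ratio overlapped between genotypes (Plvap at 0.0744, 0.0911 and 0.0972 times Ehd3 in PR3_KO, against 0.0793, 0.125 and 0.081 times in WT). Nostrin, which binds endothelial nitric oxide synthase and guides its traffic, averaged 16 ± 1.83 FPKM in PR3_KO and 48.4 ± 9.25 FPKM in WT (-1.53, limma adjusted p = 0.000735).

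Genes of caveolae and their partners moved the same way, with 8 of 11 tested genes lower and none higher and a median of -1.17. Cav1, the main coat protein of caveolae, averaged 25.0 ± 3.06 FPKM in PR3_KO and 64.4 ± 8.65 FPKM in WT, and Cavin2 and Cavin3 had fold changes at -1.30 and -1.38 (limma adjusted p = 0.000766, 0.000896 and 0.000838). Among 18 tested junction partners 16 fell and none rose, with a median of -0.72, whereas after median-of-ratios scaling 12 fell and 1 rose, with a median of -0.40. Those with the smallest adjusted p were Heg1, a receptor that anchors junction signalling (-1.54, limma adjusted p = 0.000766), the small GTPase gene Rap1a (-1.13, limma adjusted p = 0.000742) and Ptprb, the VE-cadherin-associated phosphatase (-1.16, limma adjusted p = 0.000825). Many of these partners, Rap1a included, are also made by podocytes and tubules.

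The lipid-handling genes fell by very different amounts. Gpihbp1 encodes the protein that carries lipoprotein lipase to the capillary lumen, and it had the largest fall of all 32 genes. It was at 32.15, 49.61 and 50.13 FPKM in PR3_KO, against 126.06, 199.33 and 208.25 FPKM in WT (-1.99, SE 0.24, limma adjusted p = 0.000966). Lpl, the lipase itself, was at 132.56, 166.42 and 112.23 FPKM in PR3_KO, against 173.42, 196.94 and 274.24 FPKM in WT (-0.64, SE 0.21, limma adjusted p = 0.0337). The highest PR3_KO and the lowest WT value of Lpl lay close together. Its call was lost without PR3_KO 1, PR3_KO 3 or WT 3 (limma adjusted p = 0.0916, 0.118 and 0.0919), when scaled by median of ratios (-0.31, limma adjusted p = 0.29) and with no filter (limma adjusted p = 0.0536). Lpl stood at 4.12, 3.35 and 2.24 times the FPKM of Gpihbp1 in PR3_KO, against 1.38, 0.988 and 1.32 times in WT, again chosen after the values were seen.

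Fabp4, a fatty acid-binding protein of capillary endothelium, adipocytes and macrophages, was at 123.28, 152.97 and 120.53 FPKM in PR3_KO, against 241.29, 199.68 and 444.99 FPKM in WT (-1.07, SE 0.28, limma adjusted p = 0.0149). WT 3 stood above the other WT libraries, and the call was lost without PR3_KO 1 or PR3_KO 3 (limma adjusted p = 0.0542 and 0.0503) and when scaled by median of ratios (-0.74, limma adjusted p = 0.0825). Adipocyte markers were near 0: the defining markers Adipoq and Plin1 reached at most 0.05 and 0.04 FPKM in any library, and of 6 adipocyte markers Car3 alone had a mean of at least 1 FPKM. Of 9 tested genes of lipid uptake around this trio, 4 fell and 3 rose, where 41.1% of all tested genes fell and 11.7% rose. After median-of-ratios scaling 3 of the 9 fell and 3 rose, where 22.2% of all tested genes fell and 25.6% rose. Among those that fell were Scarb1, the HDL receptor, and Fabp5 (-1.07 and -0.74, limma adjusted p = 0.00106 and 0.00233). Those that rose, named after their values were seen, were Lmf1, which matures lipoprotein lipase, Lipa and Vldlr (0.46, 0.42 and 0.62, limma adjusted p = 0.00404, 0.0147 and 0.00822). Without PR3_KO 2, Lipa was at 0.37 (limma adjusted p = 0.066).

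Plat, which encodes tissue plasminogen activator, was the most abundant of the 34 genes in both genotypes' means, at 413.58, 612.39 and 505.67 FPKM in PR3_KO, against 662.74, 866.22 and 906.69 FPKM in WT (-0.67, SE 0.19, limma adjusted p = 0.0206). Its call was lost without PR3_KO 1, PR3_KO 3 or WT 3 (limma adjusted p = 0.0801, 0.0621 and 0.0625) and when scaled by median of ratios (-0.34, limma adjusted p = 0.189). Of 10 other tested genes of fibrinolysis and thromboresistance 7 fell and 1 rose. Anxa2, a docking site for tissue plasminogen activator, Plaur, the urokinase receptor, and Tfpi, the tissue factor pathway inhibitor, fell by 1.31, 1.25 and 1.07 (limma adjusted p = 0.000935, 0.00108 and 0.00138). Plau, the urokinase gene, was the one that rose, and is named after its values were seen (0.52, limma adjusted p = 0.0284). This call was lost without PR3_KO 2, PR3_KO 3, WT 2 or WT 3 (limma adjusted p = 0.091, 0.0665, 0.0565 and 0.0908).

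Of the intracellular and other genes all 5 fell. Cyyr1, a cysteine- and tyrosine-rich membrane protein, had the smallest adjusted p of the 34 genes, at 14.61, 21.85 and 18.92 FPKM in PR3_KO, against 65.77, 82.16 and 70.18 FPKM in WT (-1.93, SE 0.16, limma adjusted p = 0.0006). Rasip1, a Rap1 effector needed for vessel lumens, was at 16.98, 21.92 and 19.60 FPKM in PR3_KO, against 53.09, 61.27 and 51.74 FPKM in WT (-1.46, SE 0.12, limma adjusted p = 0.000633). For both genes the spread within a genotype was small beside the gap between genotypes. Myct1, a MYC target expressed in endothelium, was at 6.06, 11.55 and 12.37 FPKM in PR3_KO, against 29.30, 32.65 and 30.45 FPKM in WT (-1.59, limma adjusted p = 0.00152). Arhgef15, a guanine nucleotide exchange factor, was at 20.05, 27.86 and 28.20 FPKM in PR3_KO, against 52.49, 67.92 and 49.08 FPKM in WT, and Shank3, a scaffold best known from synapses, averaged 18.3 ± 2.83 FPKM in PR3_KO and 41.6 ± 7.87 FPKM in WT (-1.13 and -1.14, limma adjusted p = 0.00171 and 0.00154).

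**Figure D2:**
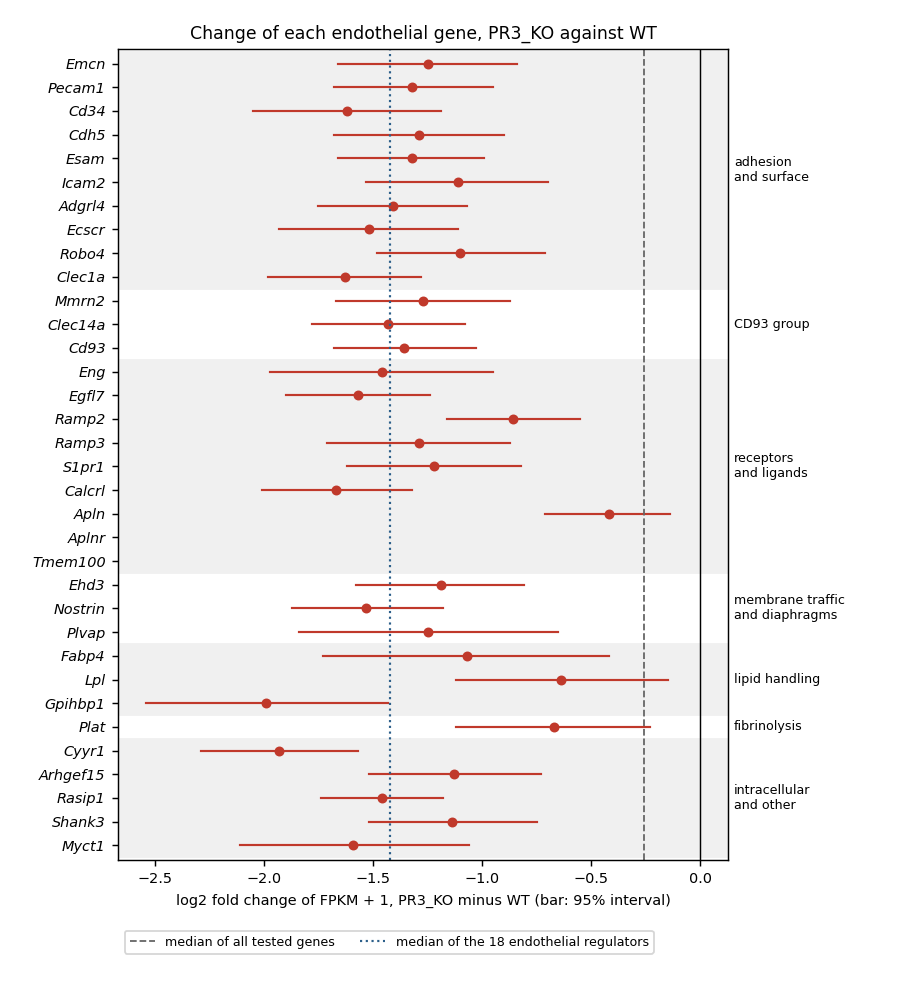
Log2 fold change of FPKM + 1, PR3_KO minus WT, of the 32 tested genes by role, with bars for the 95% interval; dashed line, median of all tested genes (-0.26); dotted line, median of the 18 endothelial regulators (-1.42). Intervals of the 32 genes lie below 0, and by point estimate Apln, Lpl, Plat and Ramp2 lie nearest to it.

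Endothelial genes outside the 34 fell as well. Of 18 regulators, the transcription factors and the VEGF and angiopoietin receptors of endothelium, all 18 fell, with a median of -1.42. Sox18, Sox7 and Fli1 had the smallest adjusted p (-1.90, -1.60 and -1.45, limma adjusted p = 0.000598, 0.000633 and 0.000684). Markers that tell vessel types apart also fell: 5 of 5 tested arterial genes, with Gja4 (connexin 37), Hey1 and Efnb2 at -1.38, -1.71 and -1.30, and 3 of 3 venous genes, with Ephb4 at -1.13 and Vcam1, which inflamed endothelium and other cells also make, at -1.83 (limma adjusted p = 0.000684, 0.000735, 0.00149, 0.00184 and 0.00389). After median-of-ratios scaling 3 of the 5 arterial genes fell. The third tested venous gene, Nr2f2, fell less (-0.50, limma adjusted p = 0.0141) and lost its call when scaled by median of ratios (-0.19, limma adjusted p = 0.194). Vwf of the venous list was under the filter, at 0.247 ± 0.0153 FPKM in PR3_KO and 0.413 ± 0.172 FPKM in WT. Bmx of the arterial list was also under it (0.337 ± 0.127 FPKM in PR3_KO and 0.53 ± 0.13 FPKM in WT). Lymphatic endothelium was hardly represented, with 0 of 5 markers at a mean of 1 FPKM and Lyve1 at 0.303 ± 0.0462 FPKM in PR3_KO and 0.61 ± 0.0794 FPKM in WT.

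To see which of the genes moved apart from the 18 regulators, the mean log2 level of these regulators in each library was subtracted from every gene and the fit repeated. Whether cells other than endothelium contributed to the regulator mean was not tested. Of the 32 genes 26 were then not past the threshold, with values between -0.29 and 0.30. On this scale 4 genes were higher in PR3_KO and 2 lower, where 89.3% of all tested genes were called higher and 1.15% lower. The higher ones were Apln (0.95, SE 0.17, limma adjusted p = 0.000347), Lpl (0.74, SE 0.28, limma adjusted p = 0.028), Plat (0.70, SE 0.27, limma adjusted p = 0.0291) and Ramp2 (0.52, SE 0.22, limma adjusted p = 0.0473). The genes below the regulators were Gpihbp1 (-0.61, SE 0.24, limma adjusted p = 0.0298) and Cyyr1 (-0.56, SE 0.16, limma adjusted p = 0.00662). Calcrl was at -0.29 (SE 0.16, limma adjusted p = 0.103). The order of the higher genes depended on the pseudocount: at 0.1 Lpl was at 0.83, Plat at 0.79, Apln at 0.75 and Ramp2 at 0.60, and Gpihbp1 was not past the threshold (-0.54, limma adjusted p = 0.0553).

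The calls of Apln and Cyyr1 on this relative scale held with each library left out in turn. That of Ramp2 was lost without any library other than WT 3 (limma adjusted p 0.0521 to 0.163), and that of Plat without PR3_KO 2, PR3_KO 3 or WT 1 (limma adjusted p = 0.104, 0.0766 and 0.129). Lpl was no longer past the threshold without PR3_KO 1, PR3_KO 2 or WT 1 (limma adjusted p = 0.0909, 0.0862 and 0.0935), and Gpihbp1 without PR3_KO 1, PR3_KO 2, PR3_KO 3 or WT 3 (limma adjusted p = 0.0925, 0.0647, 0.0539 and 0.136). Plat is also made outside endothelium, and Lpl by macrophages, fat and muscle, and whether such cells contributed here was not tested.

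**Figure D3:**
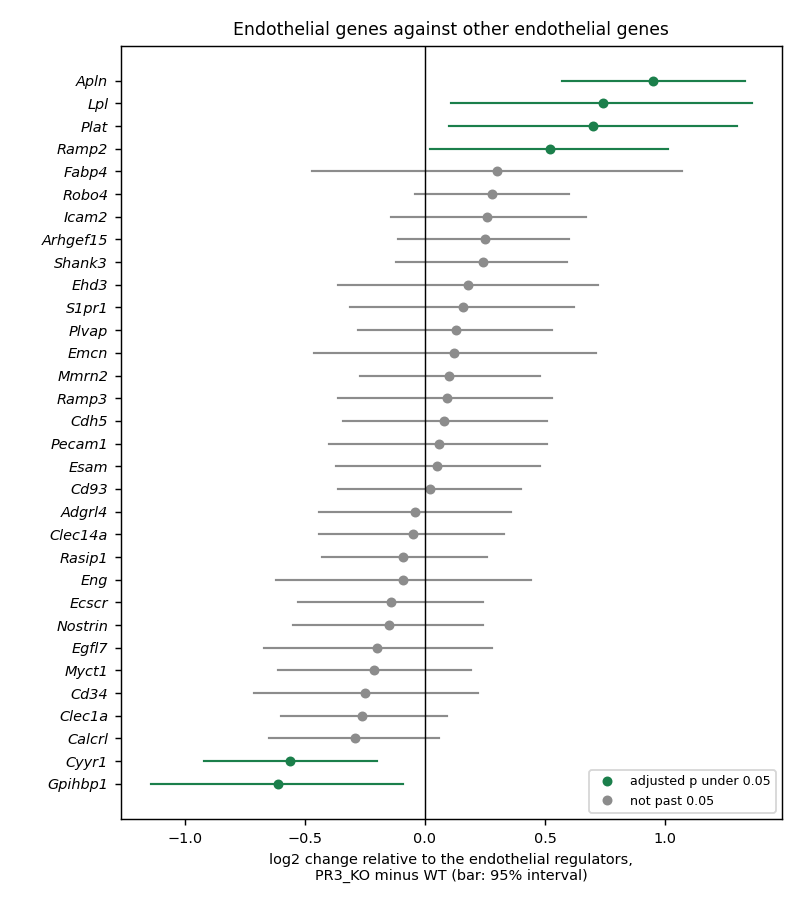
Log2 change of each of the 32 genes after subtracting the library mean of the 18 endothelial regulators, PR3_KO minus WT, with 95% intervals; green marks adjusted p under 0.05. Apln, Lpl, Plat and Ramp2 lie to the right of 0, Cyyr1 and Gpihbp1 to the left, and the other 26 are grey.

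Markers of other glomerular cell types fell in part, at shares to be read against the 41.1% of all tested genes called lower. Of 12 podocyte markers 6 fell and none rose (median -0.60, range -1.18 to -0.09), with Cd2ap and Tcf21 at -0.62 and -0.83 (limma adjusted p = 0.00346 and 0.00817). Among 10 mesangial and smooth muscle markers 6 fell and none rose (median -0.89, range -1.18 to 0.08), with the smooth muscle actin gene Acta2 at 10.7 ± 1.62 FPKM in PR3_KO and 22.7 ± 6.47 FPKM in WT (limma adjusted p = 0.00441) and Rgs5 at -1.10 (limma adjusted p = 0.00808). After median-of-ratios scaling 3 of 12 podocyte and 4 of 10 mesangial and smooth muscle markers fell, where 22.2% of all tested genes fell. When the podocyte mean of each library was subtracted from every gene, 13 of the 32 endothelial genes were lower in PR3_KO and none higher (median -0.69), against 4.88% of all tested genes called lower. With the mesangial and smooth muscle mean subtracted, 6 were lower and none higher (median -0.52), against 3.02% of all tested genes. These 6 were Cyyr1, Gpihbp1, Clec1a, Calcrl, Myct1 and Nostrin (-1.15, -1.21, -0.85, -0.89, -0.81 and -0.75, limma adjusted p = 0.00306, 0.00689, 0.0146, 0.0204, 0.0246 and 0.0492).

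Blood cells share some of the 34 genes, and their markers moved as well. Of 9 macrophage markers 9 fell, and their summed FPKM ran from 40.0 to 87.8 in PR3_KO and from 361 to 818 in WT. Of 6 platelet markers 5 fell (3 after median-of-ratios scaling), Itgb3 and Pf4 by 1.18 and 1.47 (limma adjusted p = 0.00091 and 0.00566), with summed FPKM of 7.52 to 10.4 in PR3_KO and 17.6 to 23.1 in WT. Pecam1, Icam2, Cd93, Cd34, Esam, Lpl and Fabp4 are examples of genes made by one or more kinds of blood or macrophage cell. This list is not complete, and the part of such cells in the results of the 34 genes was not tested. Erythroid markers had 0 of 5 calls and lymphocyte markers 0 of 3, and fibroblast markers 1 of 2 (lower; 0 once scaled). In the distal tubule and collecting duct list 5 of 8 fell (2 once scaled, where 22.2% of all tested genes fell). In the proximal tubule list 9 of 12 rose, with Slc22a8, Slc5a2 and Pck1 at 1.87, 1.75 and 1.81 (limma adjusted p = 0.000798, 0.00201 and 0.00211).

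**Figure D4:**
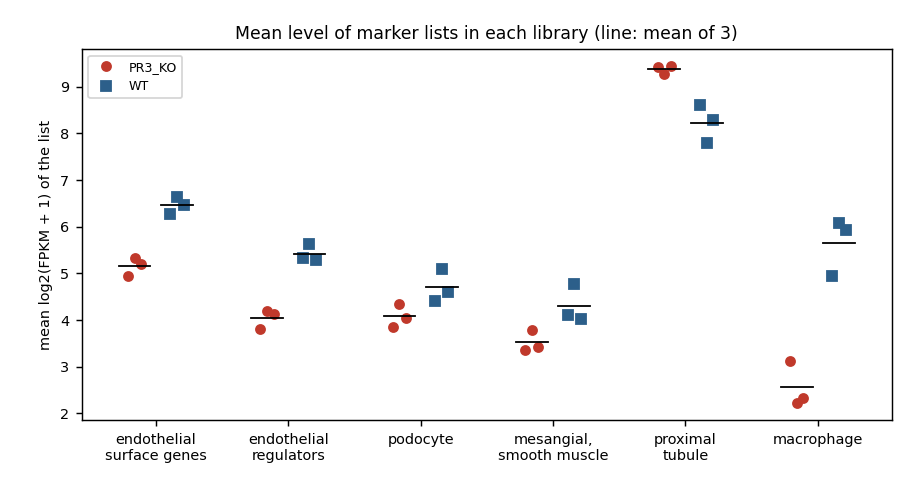
Mean log2(FPKM + 1) of the tested genes of 6 lists in each library, PR3_KO as red circles left of WT as blue squares, with the mean of 3 as a line. The endothelial surface genes lie between 4.94 and 5.33 in PR3_KO and between 6.28 and 6.63 in WT, proximal tubule markers are higher in PR3_KO, and the other 4 lists are lower.

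Promoter sequences of the 34 genes were searched for binding motifs of transcription factor families known in endothelium. RefSeq promoter windows on GRCm38.p6, from 250 bases before to 50 bases after an annotated start, were available for 16 of the 34 genes, with the first listed window of a gene used. AGGAAG holds the core of ETS family sites with flanking bases (ERG, FLI1 and ETS1 are ETS factors). Other forms of the site were not searched. These letters occurred on either strand in 14 of the 16 windows (87.5%). Of the 9940 windows of tested genes 33.4% held them, and of all 27025 windows 35.1%. Clec14a and Shank3 were the ones without AGGAAG. The SOX motif AACAAT was in 2 of 16 windows (12.5%, against 5.71% for tested genes), and the GATA motif AGATAA in 1 (6.25%, against 6.48%). Other lists with few windows held the ETS letters in 2 of 12 regulators (16.7%), 5 of 7 podocyte markers (71.4%), 3 of 6 macrophage markers (50%), 3 of 9 proximal tubule markers (33.3%) and 0 of 7 mesangial and smooth muscle markers. Such a match is a description of the letters, not of a bound site, and nothing in these libraries measures binding.

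**Figure D5:**
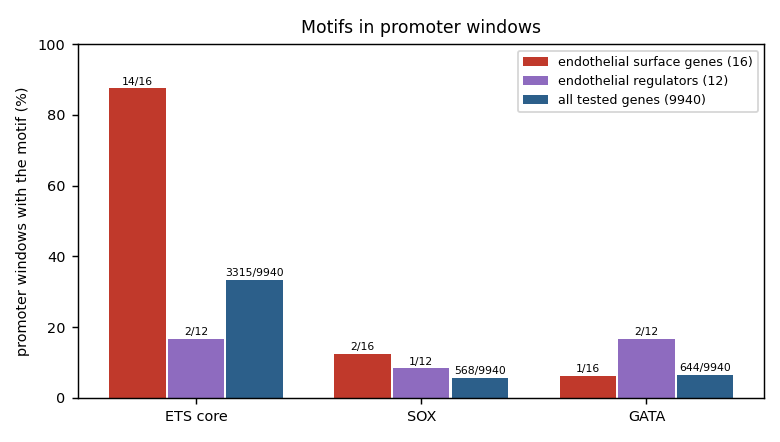
Share of promoter windows that hold AGGAAG (labelled ETS core), the SOX motif or the GATA motif on either strand. Windows are those of 16 endothelial surface genes, 12 endothelial regulators and 9940 tested genes. Labels give windows with the motif over all windows. AGGAAG stands in 14 of 16 windows of the endothelial surface genes and in 33.4% of those of all tested genes.

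In 12 of the 14 genes the ETS letters lay upstream of the start used, from 6 to 182 bases before it, and in Ehd3 and Myct1 they lay only after it. For Robo4, Calcrl and Cyyr1 the match shown lies within the gene as RefSeq bounds it, upstream of a later annotated start. The match nearest to the start is shown for each of the 12, to let the flanking bases be compared, with up to 10 bases on either side, on the strand that reads AGGAAG (capitals), and with its GRCm38.p6 position and strand.
Emcn, chr3:137340975-137341000, plus strand: tggctgccaaAGGAAGagagaggaaa
Eng, chr2:32646579-32646594, plus strand: cccttctctaAGGAAG
Egfl7, chr2:26581024-26581049, minus strand: gctgcacctcAGGAAGgaaagaccag
Nostrin, chr2:69135734-69135759, minus strand: cacaccaaggAGGAAGttccagcccc
Robo4, chr9:37401913-37401938, plus strand: agggccaggcAGGAAGcatccgtttc
Adgrl4, chr3:151437862-151437881, plus strand: aagtgacaggAGGAAGctgt
Cd34, chr1:194938669-194938694, minus strand: taagtgtggcAGGAAGccactgtgta
Ramp3, chr11:6658341-6658366, minus strand: actggaacagAGGAAGgggaagtgca
Cyyr1, chr16:85550520-85550545, plus strand: tggctccagcAGGAAGgaacttctga
Rasip1, chr7:45627436-45627461, minus strand: gaaacccggcAGGAAGagcggggagg
Calcrl, chr2:84425317-84425342, minus strand: gtgatgtaacAGGAAGctgtgatgtt
Apln, chrX:48034951-48034976, plus strand: gaagagaggcAGGAAGagggagaggg

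For Cyyr1 and Rasip1, the genes with the smallest adjusted p, the stretch from 250 to 51 bases before the start is shown to place the ETS letters in their surroundings. It is written on the strand of the gene, where the match reads CTTCCT (capitals). The Cyyr1 stretch lies at chr16:85550424-85550623 on the minus strand, inside the gene as RefSeq bounds it (chr16:85452858-85550905) and overlapping exons of non-coding Cyyr1 transcripts in the GENCODE annotation, and has the match 162 bases before the start. The Rasip1 stretch lies at chr7:45627287-45627486 on the plus strand, upstream of the gene (chr7:45627537-45639092) and overlapping an exon of a retained-intron transcript of the neighbouring gene Izumo1, and has the match 91 bases before the start.
Cyyr1: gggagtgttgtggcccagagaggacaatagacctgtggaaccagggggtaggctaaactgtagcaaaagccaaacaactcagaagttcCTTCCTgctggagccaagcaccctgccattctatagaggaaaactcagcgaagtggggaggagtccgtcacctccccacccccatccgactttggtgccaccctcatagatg
Rasip1: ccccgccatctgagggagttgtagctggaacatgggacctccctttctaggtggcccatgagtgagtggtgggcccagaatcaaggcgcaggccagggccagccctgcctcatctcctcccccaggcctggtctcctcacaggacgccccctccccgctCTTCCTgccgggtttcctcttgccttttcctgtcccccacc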

How the data were processed

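RNA of isolated glomeruli, extracted with Trizol and selected with oligo(dT), was sequenced on a DNBSEQ platform in 3 PR3_KO and 3 WT libraries, per the labels' protocols. The deposited values are FPKM per gene, computed by the authors. Bowtie2 and the GRCm38.p6 genome are named in the submitters' processing notes. The sources used here do not give the tool behind the FPKM, its annotation or its use of strand.

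From these values, limma (trend and robust moderation) was fitted to log2(FPKM + 1) for 12388 genes, those whose mean reached 1 FPKM, with Benjamini-Hochberg adjustment across all 12388 and a threshold of 0.05. The fit was tested on simulated data. Relative changes repeat the fit after subtracting the library mean of the 18 endothelial regulators, of podocyte markers or of mesangial markers. Of the genes under the filter, Aplnr and Tmem100 have an exact two-sided permutation test, and those of other lists were not tested. The 34 genes and all lists were chosen with earlier results of these data known, so no list has a test of its own. In other lists, the up to 3 called genes with the smallest adjusted p are named, or genes from the most abundant where none was called. Any other gene of these lists is named after its values were seen. FPKM states no depth; it was estimated from the step between the lowest values of single-exon genes. Alternatives were other pseudocounts, no filter, median-of-ratios scaling, other moderation, a replicate block and leaving out libraries. Promoter sequences are from RefSeq, and exons from GENCODE. Protein sequences were not used here.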

Additional observations from a re-analysis of the deposited data

How the results depend on the processing

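Of the 32 tested endothelial genes, 28 to 32 fell with 1 library left out and 30 without WT 2 and PR3_KO 3. With no filter all 34 genes were tested and 33 fell, the exception being Lpl (adjusted p = 0.0536 in limma). With podocyte markers subtracted 13 fell and with mesangial markers 6. The median of the 32 genes was -0.98 with median-of-ratios scaling, -0.69 relative to podocyte markers and -0.52 relative to mesangial markers. Signs reversed relative to mesangial markers for Plat (0.11), Lpl (0.14) and Apln (0.36), and relative to podocyte markers for Apln (0.19). They also reversed with scaling for Ackr3 (0.22), Adm (0.08) and Gna13 (0.04), and without PR3_KO 2 for Ackr3 (0.01, in a range of -0.20 to 0.01 with 1 library left out). Over all genes, scaling gave 2742 lower and 3158 higher, and leaving out 1 library gave 916 to 1518 higher (916 without PR3_KO 1, 936 without PR3_KO 3). Relative to the regulators, 1 gene was lower with a pseudocount of 0.1 and 1 to 2 with a library left out, while 1 to 5 were higher with a library left out and 2 without WT 2 and PR3_KO 3. Of the partner genes, 7 rose with scaling and 2 to 4 with a library left out. The cause was not tested.

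Same-numbered libraries did not deviate together in every pair (r = 0.07, 0.27 and -0.09), so the numbers were not taken as pairs. With the replicate block 32 of the endothelial genes fell and none rose (median -1.30), and over all genes 5143 fell and 1550 rose. On the scale relative to the regulators 2 were lower and 4 higher, and of the partner genes 51 fell and 4 rose. The estimated depth limits Aplnr and Tmem100, which stand on few fragments.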
